A study of Mus musculus with 4 samples.

Results

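The regions described here are stretches of open chromatin that were listed in all 4 ATAC-seq libraries of sorted mouse retinal endothelium and that lay away from the annotated ends of protein-coding genes. They are called shared distal regions. The 4 peak lists merged into 25263 regions, 5120 were held by every library, and 1130 of these were under 1200 bp wide and more than 1 kb from both ends of every protein-coding gene in RefSeq. That is 4.47% of all merged regions. The members were thus chosen by their presence in the 4 lists, their merged width and their distance from gene ends, and these values are given as a description.

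ATAC-seq uses a transposase that cuts open DNA and inserts sequencing adapters, and each library was made from 2000 endothelial cells isolated by FACS from the retina of C57BL/6 mice labelled P16. Of the 4 libraries, 2 came from mice of genotype "control" and 2 from mice of genotype "Zeb1 knockdown", whose sample titles read Zeb1-CKO. The Cre driver, the alleles carried by either group, the number of animals per library and how many were pooled are not given in the sources used here, so the spread between libraries of a group may be technical and p-values measure only that spread. The lists held 7608 and 13672 peaks in the controls and 13689 and 19886 peaks in the knockdown libraries, for replicates 1 and 2. Read depth is unknown, and a peak list cannot tell fewer open cells from less open chromatin per cell.

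Open chromatin away from gene ends is where enhancers lie, short elements that bind transcription factors and act on promoters over a distance. In endothelium such elements are known to bind ETS factors such as Erg and Fli1, together with Sox, Gata, Fox and AP-1 factors. Zeb1 is a zinc-finger protein that binds E-box sequences and is best known as a repressor of epithelial genes. A region more than 1 kb from a gene's outer ends need not be an enhancer, because many genes have further transcription starts inside the gene and because noncoding genes were not part of the rule.

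Some of the shared distal regions held an annotated transcription start. RefSeq's promoter table (GRCm38.p6, the assembly whose chromosomes mm10 uses) lists starts on every chromosome used here except 18, and 1093 of the 1130 regions lay on the chromosomes it covers. Of these, 343 (31.4%) held at least 1 listed start, and 374 had one within 1 kb. Starts of protein-coding genes alone were in 249 regions, starts of long noncoding RNAs alone in 74 and both kinds in 20. Another 490 regions (44.8%) were more than 10 kb from any listed start. Over all merged regions, gene ends included, these shares were 32.4% and 46.1%, close to those of the shared distal regions.

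The sequences of 5 such starts show what these regions hold. They are the 250 bases just upstream of a listed start of the gene that contains the region, for the 3 strongest regions of this kind and for the genes of the lists used below, wherever at least 200 of the 250 bases were in peaks of all 4 libraries. Each runs 5′ to 3′ on the gene's strand, taken from RefSeq on GRCm38.p6, and capitals mark matches on either strand to the CCAAT box (CCAAT), the GC box (GGGCGG), a short ETS core (AGGAAG), the AP-1 site (TGANTCA) and the E-box bound by Zeb1 (CACCTG). In the Osbpl2 window the E-box and the AP-1 match share bases.
Osbpl2, chr2:180119056-180119305, plus strand: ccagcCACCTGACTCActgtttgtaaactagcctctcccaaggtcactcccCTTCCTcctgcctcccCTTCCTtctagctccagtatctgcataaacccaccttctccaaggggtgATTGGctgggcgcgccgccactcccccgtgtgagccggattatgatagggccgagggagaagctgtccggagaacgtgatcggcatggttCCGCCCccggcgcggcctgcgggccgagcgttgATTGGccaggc
Sp2, chr11:96977689-96977938, minus strand: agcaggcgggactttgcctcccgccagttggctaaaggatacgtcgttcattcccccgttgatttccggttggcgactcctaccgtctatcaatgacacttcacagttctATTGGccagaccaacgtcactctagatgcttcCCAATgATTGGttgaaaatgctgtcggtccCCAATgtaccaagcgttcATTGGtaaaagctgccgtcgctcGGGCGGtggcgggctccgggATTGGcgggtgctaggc
Arntl, chr7:113207215-113207464, plus strand: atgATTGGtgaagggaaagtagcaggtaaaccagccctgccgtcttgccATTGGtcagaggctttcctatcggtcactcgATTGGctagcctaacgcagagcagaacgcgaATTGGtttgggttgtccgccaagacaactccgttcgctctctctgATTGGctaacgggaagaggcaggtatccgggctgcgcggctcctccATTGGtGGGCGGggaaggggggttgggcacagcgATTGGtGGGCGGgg
Nr4a1, chr15:101266596-101266845, plus strand: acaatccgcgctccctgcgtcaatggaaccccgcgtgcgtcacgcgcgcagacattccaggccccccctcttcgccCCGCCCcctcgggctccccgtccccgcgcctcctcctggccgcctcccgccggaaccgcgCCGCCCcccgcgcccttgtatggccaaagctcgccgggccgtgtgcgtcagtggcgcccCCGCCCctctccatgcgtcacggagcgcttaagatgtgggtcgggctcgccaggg
Mef2a, chr7:67372859-67373108, minus strand: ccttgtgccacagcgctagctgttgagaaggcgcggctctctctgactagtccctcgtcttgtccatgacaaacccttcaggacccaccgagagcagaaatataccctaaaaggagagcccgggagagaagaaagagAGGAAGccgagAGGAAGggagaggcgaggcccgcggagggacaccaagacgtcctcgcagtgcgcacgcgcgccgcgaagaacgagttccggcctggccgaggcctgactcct

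Osbpl2 encodes an oxysterol-binding protein, Sp2 a relative of the GC-box factor Sp1, Arntl the circadian clock factor also called Bmal1, Nr4a1 an immediate early nuclear receptor, and Mef2a a MADS-box transcription factor. The CCAAT box, which NF-Y binds, occurred 7 times in the Arntl window, 6 times in the Sp2 window and 2 times in the Osbpl2 window. It was absent from the Nr4a1 and Mef2a windows. The Nr4a1 window held 3 GC boxes (GGGCGG, a site of Sp and Klf factors), the Arntl window 2, and those of Osbpl2 and Sp2 1 each. The Mef2a and Osbpl2 windows each held 2 copies of AGGAAG, a core that ETS factors can bind. It is common, being in 35.2% of all promoter windows.

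The starts within shared distal regions were rich in CG dinucleotides. The 343 regions held 409 listed starts, and the median number of CG dinucleotides in their windows of 300 bases was 24, against 25 in the 3748 windows within shared gene-end regions under 1200 bp and 7 over all 32619 windows. The GC box was in 72.9% of the 409 windows, 77.8% of the gene-end windows and 35.9% of all windows. CCAAT, a motif picked after the sequences were seen, was in 44.7%, 51.6% and 37.6%, and 4 or more copies were in 2.93%, 4.91% and 1.07%. In CG dinucleotides and GC boxes the windows lay nearer to those at gene ends than to the average window, and in windows with 4 or more CCAAT copies they lay between both. Starts in other distal regions under 1200 bp, those not held by all 4 libraries, were also richer in CG than the average window. Their 890 windows had a median of 17 CG dinucleotides, and 53.9% held the GC box and 33.4% CCAAT.

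Motifs of factors known from endothelial enhancers, and the E-box bound by Zeb1, followed no single order. Of those given here, all but CCGGAAG were in a smaller share of the windows in shared distal regions than of all windows. The ETS motif CCGGAAG was in 15.2% of the windows in shared distal regions, 22.7% of gene-end windows and 8.92% of all windows. The short ETS core AGGAAG, marked in the printed windows, was in 33.7%, 30.7% and 35.2%, in the opposite order. AP-1 (TGANTCA) was in 6.36%, 3.47% and 7.85%, and the E-box CACCTG in 16.6%, 12.3% and 20.3%. The letters AGATAA, which Gata factors bind, were in 2.44%, 3.55% and 11.2%, and a Sox motif (ACAATGG) in 1.22%, 1.36% and 3.68%. In the 890 windows of other distal regions the motifs, in the order given, were in 13.1%, 34.4%, 9.10%, 23.0%, 6.29% and 2.81%. A Fox motif (TGTTTAC) was in 2.93% of windows in shared distal regions, 2.37% of gene-end windows and 3.67% of all windows. A shorter Sox motif (ACAAAG) was in 14.2%, 9.23% and 18.7%. In other distal regions these 2 motifs were in 3.15% and 13.5%. All motifs were searched on both strands, and a match is a description of letters, not a binding site. Sequence of the 750 regions without a listed start was not used here.

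By the rule, a protein-coding gene's start inside a shared distal region must lie within that gene, away from its outer ends. This was so for the 269 regions with such a start, and the other 74 held starts of long noncoding RNAs alone. The 269 regions covered 268 genes, 132 with a single listed start and 136 with more than 1. The listed start lay a median of 5295 bp inside the gene's outer 5′ end, and over 10 kb inside it for 93 genes.

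Most of these genes had no listed peak near their outer ends, though absence from a peak list does not show closed chromatin. Of the 268, 186 (69.4%) had no peak in any library within 1 kb of either outer end of the gene, and 40 (14.9%) had one there in all 4 libraries. Over all 21631 protein-coding genes these shares were 51.5% and 20.9%. Among the 350 genes with a shared distal region inside but none at their own listed start, they were 47.1% and 21.4%. Arntl, Osbpl2 and Sp2, shown above, had no gene-end peak in any library, and neither did Hdac4 (a histone deacetylase), Mef2a, Itgav (the integrin alpha v chain) or Axin2 (a target and inhibitor of Wnt signalling). Nr4a1, also shown above, had a gene-end peak in 3 libraries. Osbpl2, Sp2, Arntl and Hdac4 were picked after their values were seen.

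The listed start of Arntl lay 28994 bp inside its outer end, and that of Hdac4 15361 bp. The Arntl region (chromosome 7, 113206944 to 113207832) ranked at percentiles 4.17, 4.52, 4.49 and 2.258 from the top of the control 1, control 2, knockdown 1 and knockdown 2 lists. The Hdac4 region (chromosome 1, 92179929 to 92180999) ranked at 3.42, 1.66, 5.01 and 2.49, in the same order. Both were thus among the strong peaks of each list.

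Starts of long noncoding RNAs were the other kind. Among the strongest were those of Gm15564, of Chaserr (a noncoding RNA next to the chromatin remodeller gene Chd2) and of Snhg8 (a small nucleolar RNA host gene), at places 6, 55 and 88 when the 1130 regions are ordered by the weakest of their 4 percentiles. They were picked after their values were seen. Of all 1130 regions, 196 lay within 1 kb of an end of some RefSeq gene, necessarily one that does not code for protein.

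**Figure D1:**
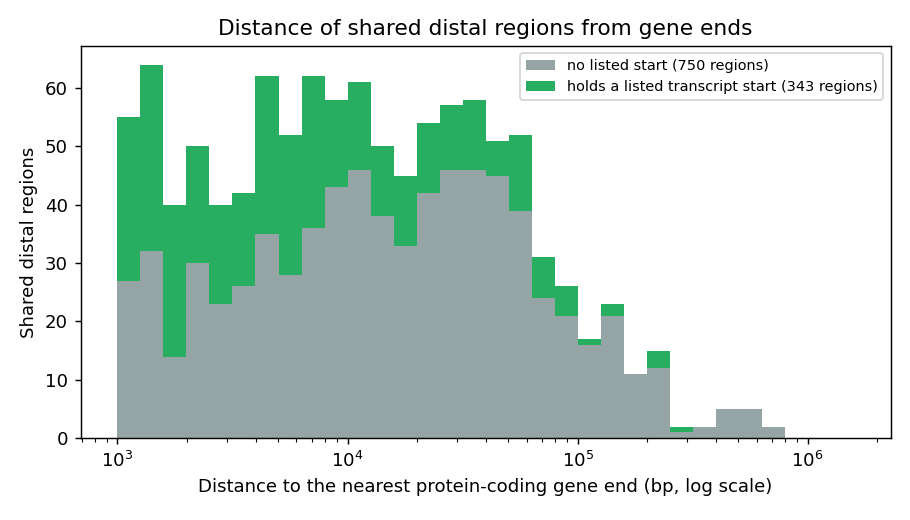
Distance from each shared distal region to the nearest protein-coding gene end (bp, log scale), stacked by whether the region holds a transcript start in the RefSeq promoter table (343 regions) or not (750 regions), chromosome 18 left out. Regions with a listed start crowd the left, with a median of 5395 bp against 15440 bp for the others.

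More of the regions lay inside genes than between them. In a protein-coding gene lay 648 of the 1130 regions (57.3%), and 482 lay between genes. The nearest protein-coding gene end was a median of 11251 bp away, with quartiles of 3609 and 35516 bp. It was at most 5 kb away for 362 regions, 5 to 50 kb for 566 and over 50 kb for 202, of which 88 were over 100 kb away. Regions with a listed start were mostly inside genes (82.8%), and those without one mostly were not (45.6%). The first share follows in large part from the rule, as a region with a protein-coding gene's start must lie inside that gene.

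Set beside other distal regions of the same width limit, the shared ones lay closer to gene ends and more often held a start. A listed start was in 17.4% of the 1671 distal regions missing only in control replicate 1, in 7.05% of the 1749 knockdown-only ones and in 5.62% of all 14206 not held by all 4 libraries. The median distances to a gene end were 15730, 18499 and 21168 bp. The share inside genes was 60.2%, 55.4% and 55.5%. Regions are not replicates and these shares were not tested.

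By the rule, no shared distal region reaches 1200 bp, and the median merged width was 612 bp, with quartiles of 497 and 807 bp. Each region was made of exactly 1 peak per library, 1130 in each list, so no library split a region into pieces. At least 1 base was in peaks of all 4 libraries in 1123 regions, with a median of 283 such bases. In 7 regions the 4 peaks had no base in common, among them the one beside Tal1. Few regions were on the edge of the rule. Of them, 24 lay at most 1.1 kb from a gene end, the nearest 1001 bp from Aktip and from Sin3a, while the last one left out was 993 bp from Acoxl. The widest kept, near Ptpdc1, was 1195 bp, and the narrowest left out, near Acot11, was 1203 bp.

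The regions spanned the whole of each list and lay mostly above its middle. Peaks were ordered within each list by the authors' −log10 q, and the median percentile from the top was 44.4 in control replicate 1, 29.5 in control replicate 2, 26.3 in knockdown replicate 1 and 20.2 in knockdown replicate 2. Lists of different length give different percentiles, so these describe each list only. Below the middle of its list lay 44.1%, 26.8%, 23.6% and 15.8% of the regions. In 608 regions control replicate 1, the shortest list, gave the weakest of the 4 percentiles, and knockdown replicate 2, the longest, did so in 85. In all, 483 regions were in the upper part of all 4 lists (percentile 50 or better), 69 in the top 10% of all 4 and 64 in the lower part of all 4. Shared gene-end regions under 1200 bp stood higher, with median percentiles of 34.5, 19.1, 19.6 and 13.5.

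**Figure D2:**
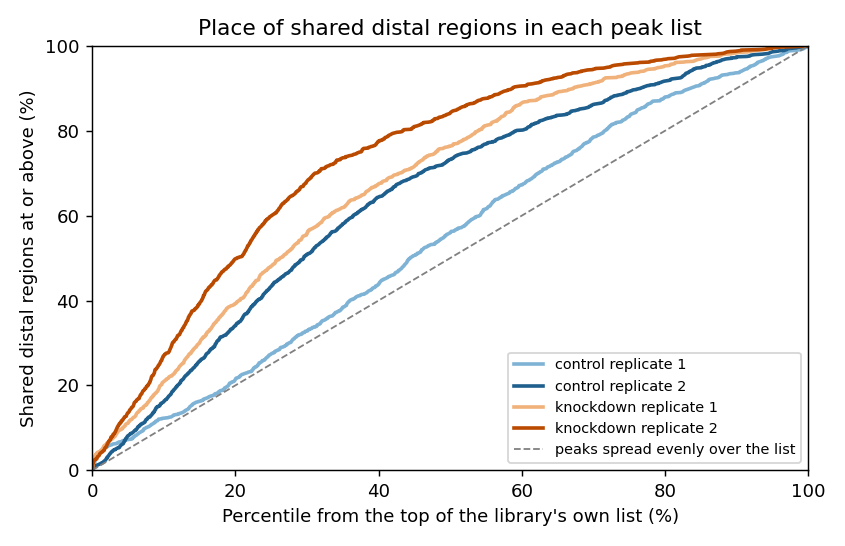
Cumulative share of the 1130 shared distal regions (%) at or above each percentile of a library's own list, ordered by −log10 q; the dashed line is an even spread. Over most of the range the control replicate 1 curve lies lowest, with a median percentile of 44.4, and the knockdown replicate 2 curve highest, with 20.2.

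The same regions were covered by wider peaks in the knockdown libraries than in the controls. The median width of a library's peak on a shared distal region was 364.5 bp in control replicate 1 and 418 bp in control replicate 2, against 502.5 bp in knockdown replicate 1 and 498 bp in knockdown replicate 2. The groups did not overlap. The means were 391 ± 37.8 bp (SD, n = 2) and 500.2 ± 3.18 bp (SD, n = 2), a difference of 109 bp. A two-sided exact permutation test over the 4 libraries returned p = 0.33. With 2 libraries a group no smaller value can arise, so the difference cannot be called.

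Single regions showed the same lean. In 527 regions (46.6%) both knockdown peaks were wider than both control peaks, and in 43 (3.81%) both control peaks were wider. Over the 3397 shared gene-end regions under 1200 bp the shares were 51.4% and 1.74%, so the shared distal regions were near the background in this respect. Over whole lists the control medians were 388 and 343 bp and the knockdown medians 445 and 385 bp, so there the groups overlapped. The 13672 peaks of control replicate 2 and the 13689 of knockdown replicate 1 make lists of similar size, and there the median widths on shared distal regions were 418 and 502.5 bp. With every list limited to its 7608 strongest peaks, the difference between groups was 109 bp over 696 regions. Each peak kept the width called in its own library. These comparisons therefore cannot decide whether depth plays a part, which was not tested.

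**Figure D3:**
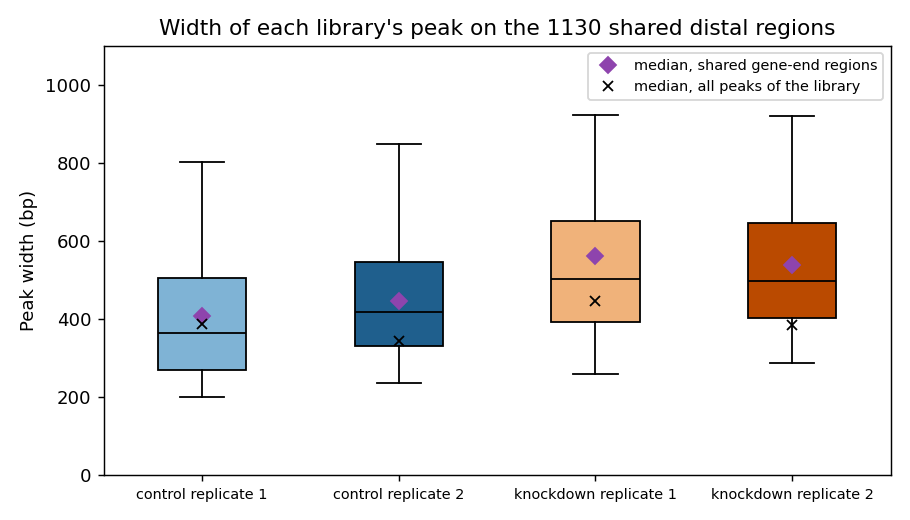
Width (bp) of each library's peak on the 1130 shared distal regions; boxes give the quartiles, the line the median and the whiskers the 5th and 95th percentiles. Diamonds are medians on shared gene-end regions and crosses medians of whole lists; on the shared distal regions the knockdown medians of 502.5 and 498 bp lie above the control medians of 364.5 and 418 bp.

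The share of a list that lay on shared distal regions was 14.9% and 8.27% for the control lists, then 8.25% and 5.68% for the knockdown lists. Every list contributes the same 1130 peaks, so this share is set by list length alone. The difference in means of -4.59 percentage points therefore follows from the rule, and no test is read from it.

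The 12 strongest regions were of 2 kinds. The first 9 lay between protein-coding genes and were narrow, with merged widths from 300 to 517 bp. The next 3 lay inside Kat6b (a histone acetyltransferase), Zfp574 and Phf19 (a Polycomb-associated protein) and were 674 to 1001 bp wide. The first 9 were nearest to Tmem196, Gtpbp4, Asmt, Pak3, Sfi1, Kpna1, Chst2, Cyp2b19 and Alkbh8, at distances from 1374 to 202914 bp.

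The strongest of all, 7359 bp from Tmem196 (chromosome 12, 120028601 to 120029054), had the authors' fold enrichment over its own library's background of 19.9 and 20.2 in the control lists and 21.1 and 20.5 in the knockdown lists. Its −log10 q was 292, 97.3, 387 and 109.6. The second, 15472 bp from Gtpbp4 (chromosome 13, 9011588 to 9011960), had fold enrichments of 21.3, 18.2, 24.9 and 23.8. These values were far above the medians on all shared distal regions, which were 4.00, 6.07, 5.33 and 6.57. No list of regions that draw excess reads in any assay was used here, and what the authors' peak filter removed is not given in those sources. None of the 12 held a start of a protein-coding gene.

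**Figure D4:**
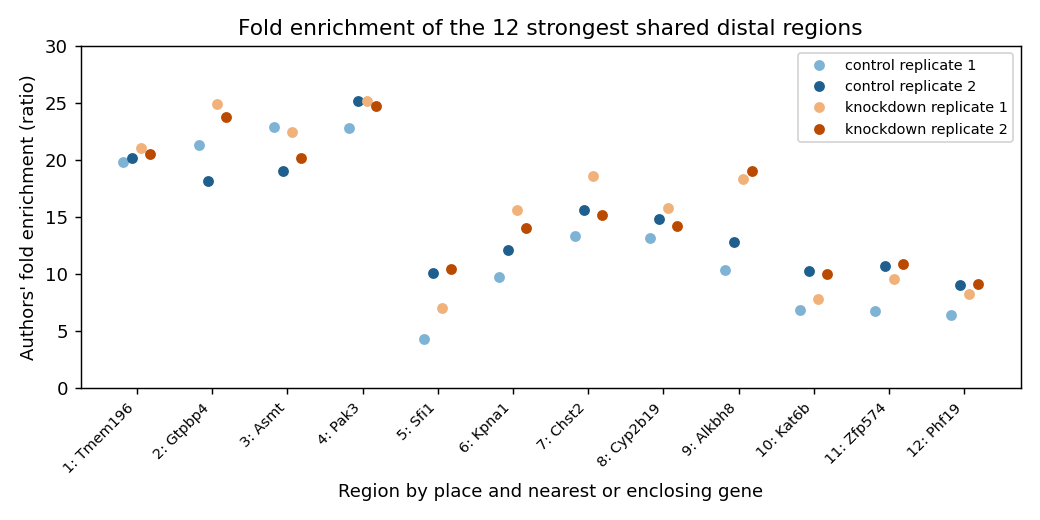
Authors' fold enrichment (ratio over the library's own background) of the 12 strongest shared distal regions in each library, labelled by place and by the enclosing or nearest gene. The first 4 stand between 18.2 and 25.2 in every library, and the last 3 (Kat6b, Zfp574 and Phf19) below 11.

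Immediate early genes, which respond within minutes to stimulation, often had shared distal regions nearby. A gene was counted if such a region lay in it or within 50 kb. Of the 24 genes of this list, 13 (54.2%) were counted, against 11.3% of all protein-coding genes. Within 10 kb the count was 7 (29.2%), against 4.72%. Between them the 13 had 21 regions, of which 2 held a listed start. All 13 were counted also when regions within 1 kb of a listed start were left out, where the share over all genes was 6.63%. Their share was the highest of the 15 lists with all 4 libraries. Without control replicate 1 it was 70.8%, below the 73.3% of endothelial identity genes.

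The region 7147 bp from Nr4a1 (chromosome 15, 101246207 to 101246755) was the strongest of these. It ranked at percentiles 6.99 and 2.00 in the control lists and 1.12 and 0.689 in the knockdown lists. A second region at Nr4a1 was the start printed above. Fos, a subunit of the AP-1 factor, had 3 regions, 1453 bp, 8557 bp and 18109 bp from the gene. The best of them (chromosome 12, 85485831 to 85486373) ranked at 5.70, 7.41, 3.53 and 4.26, inside the top 8% of every list.

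Fosb, Junb, Egr3, Ier2 and Btg2 had 2 regions each. Klf2, the flow-responsive factor of quiescent endothelium, had 1 region 22938 bp away (chromosome 8, 72295349 to 72296124) at percentiles 17.6, 7.53, 6.11 and 8.62. Nr4a3, Atf3, Bhlhe40, Maff and Ier3 had 1 each. Those of Maff and Ier3 were weak, at place 1057 and 1100 of 1130. A peak within 1 kb of a gene end was in each library for 16 of the 24 genes of this list, against 20.9% of all protein-coding genes.

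Endothelial identity genes bear on the label of the sorted cells. Of 30 such genes, 5 had a gene-end peak in each of the libraries, a share below the 20.9% of all protein-coding genes. Such peaks were found for 3 of 18 Müller glia and astrocyte genes, 2 of 12 pigment genes, 2 of 28 photoreceptor genes, 0 of 16 pericyte genes and 0 of 18 leukocyte genes. Gene-end peaks thus did not set the endothelial list apart from the glial and pigment lists. Among the 30, 10 had a shared distal region within 50 kb (33.3%, against 11.3% of all protein-coding genes) and 8 within 10 kb (26.7%, against 4.72%). The count depended on control replicate 1 and on the threshold. Without that library, 22 genes were counted (73.3%, against 22.7% of all protein-coding genes). With a −log10 q of at least 3 only 2 remained in the count (6.67%, against 5.65%), and with lists cut to the length of the shortest 4 did (13.3%, against 7.32%).

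The 10 genes were Cdh5, Flt1, Tek, Sox18, Vwf, Kdr, Egfl7, Tal1, Nos3 and Sox7. Cdh5, which encodes VE-cadherin, the adhesion molecule of endothelial junctions, held the region placed highest by the weakest of its 4 percentiles. In single lists, regions of Flt1, Kdr and Tek ranked higher, as given below. The Cdh5 region lay inside the gene (chromosome 8, 104121534 to 104122355) and ranked at percentiles 26.2, 21.9, 27.3 and 9.52. Its peaks were 487, 690, 496 and 713 bp wide, so replicates of a group differed more than the groups did. Every library also had a peak at an end of Cdh5.

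The 3 VEGF and angiopoietin receptor genes Flt1, Kdr and Tek had a region each or more. Tek (Tie2) held one inside the gene (chromosome 4, 94746426 to 94746858), at percentiles 54.3, 10.6, 25.6 and 39.3, and had no gene-end peak in any library. The Kdr (VEGF receptor 2) region lay 9670 bp outside the gene (chromosome 5, 75922654 to 75923157), at 69.6, 8.34, 31.8 and 21.3. In both, control replicate 1 was the weakest and control replicate 2 the strongest.

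Flt1 (VEGF receptor 1) held 2 regions inside the gene. The one at chromosome 5, 147611338 to 147611770, followed the replicate number and not the genotype. Its percentiles were 0.237 in control replicate 1 and 0.285 in knockdown replicate 1, but 31.8 and 22.4 in the replicate 2 libraries. Fold enrichments there were 12.04 and 12.42 against 6.11 and 6.40. The other Flt1 region (147589804 to 147590429) ranked at 20.7, 55.9, 8.18 and 4.04 and showed no such split.

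Further endothelial loci had regions too, all placed below the one in Cdh5 by the weakest percentile. One lay 5378 bp from Sox18, a SoxF transcription factor, 1 lay 23014 bp from Vwf (von Willebrand factor), and 2 lay within 50 kb of Egfl7, which hosts the endothelial microRNA miR-126, the nearer 2308 bp from the gene. The region 3429 bp from Tal1, a blood and endothelial factor, is one of those whose 4 peaks shared no base. Its control peaks were 200 and 202 bp wide and its knockdown peaks 293 and 453 bp. The region 9670 bp from Kdr and that of Vwf also had a narrow peak in control replicate 1, at 265 and 212 bp.

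Of 30 barrier and Wnt genes, which build the blood-retina barrier, 12 had a shared distal region within 50 kb (40%, against 11.3% of all protein-coding genes). Within 10 kb 6 had one (20%, against 4.72%). Slc2a1, the glucose transporter of barrier endothelium, had one 2644 bp away (chromosome 4, 119105729 to 119106101), at percentiles 52.9, 44.2, 26.8 and 17.7. It stood higher in each knockdown list than in either control list, which lists of unequal length do not show to be a change.

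Ctnnb1 (beta-catenin) had a region 18037 bp away at the start of the noncoding gene 1700020M21Rik. Tspan12, a coactivator of the Norrin receptor Fzd4, and Axin2 each held 1 inside the gene, the one in Axin2 at a listed start of the gene. The region nearest to Cldn5, the main endothelial claudin, was 42949 bp away, at percentiles 54.6, 71.4, 11.7 and 16.2. Slc7a5 and Nkd1 had 1 each at over 38 kb, inside the neighbouring genes Banp and Snx20. Mfsd2a, a lipid transporter of barrier endothelium, and the tricellular junction gene Marveld2 each held a weak one, and Ocln and Cgn were counted through regions over 47 kb away.

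Among endothelial transcription factors, 10 of 30 genes had a shared distal region within 50 kb (33.3%, against 11.3% of all protein-coding genes). Within 10 kb 6 had one (20%, against 4.72%). Klf2, Sox18, Tal1 and Sox7 are also in other lists. Mef2a was counted through the start printed above (chromosome 7, 67372755 to 67373650, percentiles 25.8, 33.04, 9.42 and 8.58). Tcf4, an E-protein, and Nfib had 2 regions each, and the remaining genes were Lyl1, Foxc2 and Mef2c. The 2 regions counted for Lyl1 were those of Ier2, over 37 kb away.

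Notch and arteriovenous genes had 6 of 26 members counted (23.1%, against 11.3% of all protein-coding genes), and 3 (11.5%, against 4.72%) within 10 kb. The ligand gene Jag2 had a region 9501 bp away (chromosome 12, 112897512 to 112898302) at percentiles 19.2, 12.4, 12.8 and 6.21. Nr2f2, the vein-identity factor, held 1 inside the gene (chromosome 7, 70361662 to 70362126) at 22.2, 14.3, 20.9 and 14.6. The replicate 1 libraries had the lower fold enrichments there, 4.55 and 5.33, against 7.51 and 7.08 in the replicate 2 libraries. That is no trait of this region, as the medians over all 1130 regions were 4.00 and 5.33 against 6.07 and 6.57. The region 24933 bp from the tip-cell ligand gene Dll4 ranked at 30.7 and 23.7 in the control lists, and at 2.14 and 4.07 in the knockdown lists, whose lengths differ. That of the target gene Hes1 lay 11796 bp away. Sema3g had 1 weak region 2604 bp away, and Notch4 was counted through a weak one 38211 bp away, at the start of Ppt2.

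Sprouting genes had 6 of 24 members counted (25%, against 11.3% of all protein-coding genes). Within 10 kb 3 were counted, where the share over all protein-coding genes was 4.72%. Of the 6 regions of this list, 3 held a listed start. Among the genes counted were Itgav, with a region at its own listed start, and Itgb1, 30644 bp from its region. Dll4, listed here too, and Itga5 had 1 each. Col4a1 and Col4a2, the collagen IV genes that lie head to head, were counted through the same 2 regions, both at starts of noncoding RNAs (Gm46030 and Gm32709). TGF-beta and BMP genes had 7 of 26 (26.9%, against 11.3% of all protein-coding genes), and 2 (7.69%, against 4.72%) within 10 kb. They are long genes, with a median length of 50202 bp against 17329 bp over all genes. Tgfb1 had 2 regions, Id3 had 3, and Smad1, Smad3, Smad4, Smad6 and Id2 had 1 each.

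Loci of other retinal cells mostly had few such regions. Of 16 pericyte and smooth muscle genes 0 were counted within 50 kb, and 1 each of 18 Müller glia and astrocyte genes (Rlbp1, 5.56%), 18 leukocyte genes (Cx3cr1, 5.56%), 12 pigment genes (Best1, 8.33%) and 11 erythroid genes (Ank1, 9.09%). The Best1 region held the start of Fth1 (ferritin heavy chain). Inner retinal neuron genes had 3 of 24, namely Gad2, Calb2 and Rbpms. These shares were near or below the 11.3% of all genes. Genes differ in length and in neighbours, and no test was made over the lists.

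Photoreceptor genes had 4 of 28 (14.3%, against 11.3% of all protein-coding genes), and 3 (10.7%, against 4.72%) within 10 kb. Their share within 10 kb was near the 11.5% of Notch and arteriovenous genes. Sprouting genes also had 3 counted within 10 kb, of 24. Within 50 kb the photoreceptor share was below the 23.1% and 25% of those lists. Barrier and Wnt genes (20%) and endothelial identity genes (26.7%) had higher shares within 10 kb, and TGF-beta and BMP genes (7.69%) a lower one. Abca4, the retinoid transporter of photoreceptor outer segments, held 3 regions, as many as any gene contained. They ranked at 13.1, 11.97, 11.2 and 12.6 for the best (chromosome 3, 122078050 to 122078604), at 24.6, 20.4, 10.4 and 3.98 for the second and at 22.2, 35.5, 13.5 and 11.0 for the third. None was at a listed start, and the Abca4 gene ends had no peak in any library. Prph2 (peripherin 2) had 2 regions, a weak one inside the gene and a stronger one 30095 bp away inside Bicral. Cngb1 held 1 inside the gene. Pde6b was counted through 1 region 16908 bp away, at the start of the neighbouring gene Mfsd7a. Whether photoreceptor chromatin was present among the sorted cells was not tested.

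The list of epithelial genes, taken as background targets of Zeb1 repression, had 7 of 32 members counted (21.9%, against 11.3% of all protein-coding genes) but 2 (6.25%, against 4.72%) within 10 kb, a share near that of all genes. The 2 were Grhl1, with a region inside the gene, and Marveld2. Rab25 was counted through regions 19714 and 48660 bp away, the farther one at the start of Lmna, and Krt8 and Krt18 through 1 region 12058 and 43563 bp away. Ovol1 and Cgn had 1 each. All these regions were open in both control libraries, as the rule requires.

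**Figure D5:**
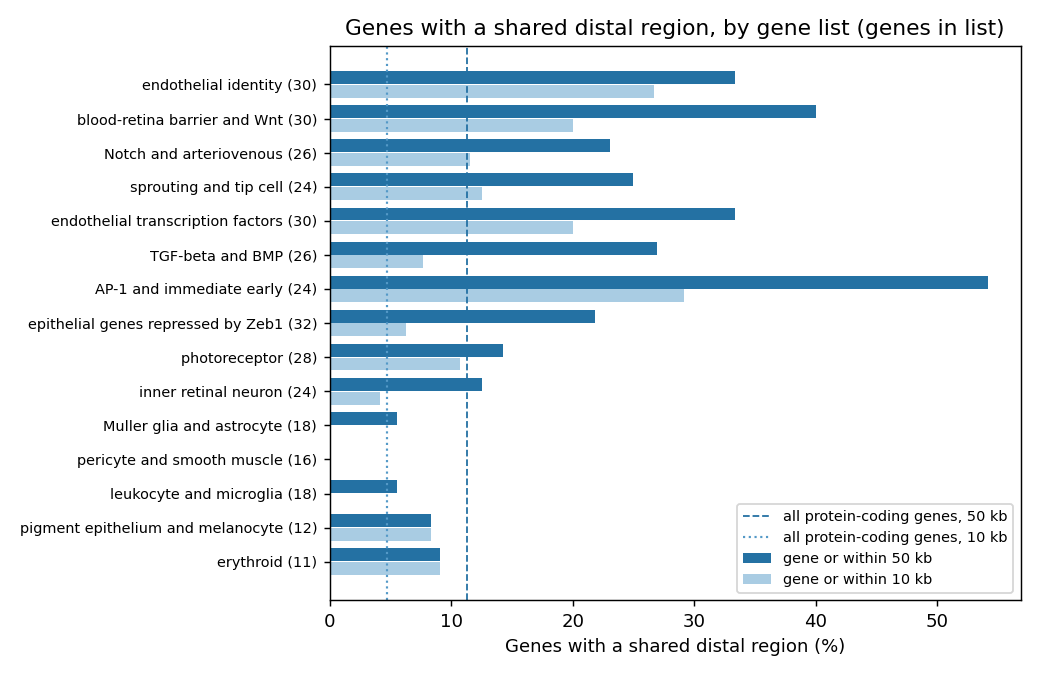
Percent of the genes in each list with a shared distal region in the gene or within 50 kb (dark bars) or 10 kb (light bars); lines mark the same share over all protein-coding genes, 11.3% and 4.72%. Immediate early genes reach 54.2%, barrier and Wnt genes 40%, endothelial identity genes 33.3%, and pericyte genes 0.

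A few microRNA loci had a shared distal region close by. Within 10 kb of 21 regions lay 27 of the 1005 microRNA hairpins listed by RefSeq on these chromosomes. This is a lower share than the 4.72% of protein-coding genes, which span more sequence than hairpins, and the shares were not tested. The mature sequences below are those of well-known families among the 27, picked after their values were seen, with the seed (bases 2 to 8) in capitals. MicroRNAs with one seed recognise overlapping sets of messenger RNAs.
mmu-miR-210-3p: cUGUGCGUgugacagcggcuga
mmu-miR-21a-5p: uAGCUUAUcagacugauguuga
mmu-miR-17-5p: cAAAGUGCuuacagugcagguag
mmu-miR-20a-5p: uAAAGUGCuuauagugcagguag
mmu-miR-19a-3p: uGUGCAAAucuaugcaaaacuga
mmu-miR-19b-3p: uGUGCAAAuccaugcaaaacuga
mmu-let-7a-5p: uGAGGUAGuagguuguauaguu
mmu-let-7e-5p: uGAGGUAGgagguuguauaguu

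The region beside Mir210, a hypoxia-induced microRNA, was 123 bp from the hairpin (chromosome 7, 141221616 to 141222240) and ranked at percentiles 49.4, 23.3, 22.6 and 5.19. The cluster with Mir17, Mir18, Mir19a, Mir20a, Mir19b-1 and Mir92-1, known for its roles in growth and vessel formation, had 1 region 2558 bp from Mir17 and 3314 bp from Mir92-1 (chromosome 14, 115040583 to 115041113), at 31.9, 24.8, 52.9 and 34.0. As the lines above show, miR-17 and miR-20a have the seed AAAGUGC in common, and miR-19a and miR-19b the seed GUGCAAA. One region thus adjoined members of both seed families.

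Mir21a had 2 regions, 2572 bp and 6453 bp away, the nearer one inside Vmp1. They ranked at 74.2, 32.6, 19.3 and 16.2 and at 70.0, 34.1, 38.1 and 19.8, weak in control replicate 1 in both cases. The let-7 loci had stronger ones. The region 7372 bp from Mirlet7e and 6937 bp from Mir125a (chromosome 17, 17837816 to 17838611) was at place 15 of the 1130, at 1.301, 2.33, 0.577 and 0.397. That near Mirlet7a-1, Mirlet7f-1 and Mirlet7d (chromosome 13, 48545723 to 48546917) was at place 58, and it is also the widest region kept by the rule.

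Shared distal regions seldom stood close together. Within 12500 bp of another one lay 46 of the 1130, in 23 pairs, and no run was longer than 2. Pairs were found at Nedd9, Mapk6, Tubd1, Sec14l1, Abca4 and Adgre5, among others, and the widest, at Nedd9, spanned 13936 bp. Of the 618 genes with a region inside, 2.86% of protein-coding genes, 581 had 1, 35 had 2 and 2 had 3, namely Abca4 and Mast4. Counting 50 kb on each side, E2f2 (a cell cycle factor) and Stk11 (the kinase LKB1) had the most, with 4 each. The next genes, with 3 each, included Abca4, Mast4, Creb3l2 and Kdm2a.

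The regions were found on every chromosome used. They made up from 3.43% of the merged regions on chromosome 19 to 6.07% on chromosome 13, and 5.02% on X. The 37 regions on chromosome 18 were counted throughout, except where listed starts were needed.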

How the data were processed

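The files are 4 lists of broad peaks on mm10, 1 per library, deposited by the authors. MACS2 2.1.1, bedtools 2.26.0, Bowtie2 2.3.2, SAMtools 1.3, Picard 2.9.2 and Trimmomatic 0.36 are named in the submitters' processing notes, with no roles, order or settings. For every peak the authors deposited a −log10 q, which is above 1 throughout, and a −log10 p. They also deposited the fold enrichment, a ratio to local background, and a score (the −log10 q times 10, at most 1000). Within each list these values served for ranks and thresholds.

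Peaks on chromosomes 1 to 19 and X were merged where they overlapped or touched, with 1-based coordinates printed. Genes, promoter windows (250 bases before to 50 after a start) and microRNAs came from RefSeq tables on GRCm38.p6. All 349 list entries matched, 333 different genes in 15 lists. No genome sequence was used, so the planned motif search over the regions was reduced to promoter windows. Regions and genes were named by places in the order of strength (the 12 strongest, up to 8 or 4 genes per list, the genes with most regions), and other names were picked after their values were seen. One gene that the rule names is not reported here. The members and lists were chosen with earlier results of these data known. Group values were compared by an exact permutation test over libraries. Functions were tested on simulated data. Python 3.11.15, pandas 2.3.3, numpy 2.4.6 and scipy 1.17.1 were used.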

Additional observations from a re-analysis of the deposited data

How the results depend on the processing

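Control replicate 1, the shortest list, limits the set. With 1 library left out in turn, the number of shared distal regions ran from 1214 to 2816, the latter without control replicate 1. In those 4 settings the share inside genes ran from 56.5% to 59.1%, endothelial identity genes within 50 kb from 11 to 22 and protein-coding genes from 2567 to 4918.

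With a −log10 q of at least 3, 534 regions, 2 endothelial identity genes and 1222 protein-coding genes were counted. With the 7608 strongest peaks of each library these were 696, 4 and 1584. When peaks had to cover at least 50% of a region, 682 regions and 1521 genes were counted. Leaving out regions within 1 kb of a listed start, an alternative chosen after seeing the data, gave 719 regions, 45.2% of them inside genes, and 1435 genes. At 3 kb from gene ends 53.1% were inside genes, and 62.1% when the ends of every RefSeq gene were avoided. Windows of 10 kb gave 1021 protein-coding genes, and the nearest gene end gave 972. Fewer regions or a smaller window lower these counts by construction.

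The width difference stayed between 71.8 and 129 bp, wider in the knockdown libraries, in every setting run. No setting called the peaks anew, so their widths stayed those of the deposited lists. The difference in the share of a list stayed below 0 but was -0.00302 points with lists of equal length. Ordered by fold enrichment, 8 of the 12 strongest regions were the same. With the replicate number as a block, the width difference was 109 bp (138 bp within number 1 and 80 bp within number 2, exact sign-flip p = 0.5, the smallest possible), and the share difference was -4.59 points. Deviations of same-numbered libraries correlated at 0.0538 over the 1130 regions (log2 width). Such a correlation cannot show a shift common to all regions, and regions are not replicates, so it does not decide whether the libraries are paired. The labels tie the numbers to no animal, litter or day. Median fold enrichments were 4.00 (control) and 5.33 (knockdown) in replicate 1, against 6.07 and 6.57 in replicate 2. Single regions, such as one in Flt1, also divided by replicate number. The planned motif search over whole regions was not run for want of a genome sequence.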
